A study of Mus musculus with 7 samples.

Results

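Hyaluronan is a long, unbranched sugar polymer of the extracellular matrix, and 8 genes of its synthesis, binding and turnover were examined here: Has1, Has2, Has3, Hyal1, Hyal2, Cd44, Vcan and Tnfaip6. They were taken by symbol from a table of 24421 gene rows, and all 8 were found in it. Messenger RNA of sorted stromal cells of BALB/c mice had been counted in 7 libraries made from the 3′ ends of polyadenylated transcripts. The 3 pCAF libraries held cancer-associated fibroblasts, the fibroblasts of a tumor, from breast tumors of mice that had received 100000 4T1-luc cells, a mouse mammary carcinoma line with a luciferase reporter, in a mammary fat pad as an orthotopic breast injection. Those tumors were taken at 1 cm, and the sort kept Ter119- CD45- EpCAM- PDPN+ cells, PDPN being podoplanin, a membrane glycoprotein found on fibroblasts and on lymphatic vessels. The 4 NMF libraries came from the normal mammary fat pad of untreated mice and were sorted as Ter119- CD45- EpCAM-, with no selection on PDPN. The age field read 8 weeks for pCAF, which is also the age given for the injection, and 12 weeks for NMF, although the design text speaks of matched ages. The selection field of pCAF replicate 3 read PDPN-, against its title and source, and digestion used different collagenase solutions, for 20 min in tumors and 25 min in fat pads. The sample titles call each replicate biological, but the labels name no animal behind it. The p-values here therefore reflect library-to-library spread, which may be in part technical.

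The polymer is spun out through the plasma membrane by the hyaluronan synthases HAS1, HAS2 and HAS3, which join glucuronic acid and N-acetylglucosamine from UDP sugars in the cytosol. It is held and organised by proteins that bind it: CD44 is its main receptor on the cell surface, versican (Vcan) is a large chondroitin sulfate proteoglycan that anchors to it, and TSG-6 (Tnfaip6) is a secreted protein that transfers the heavy chains of inter-alpha-inhibitor onto it. Hyaluronidases cut it, HYAL2 at the cell surface and HYAL1 in the lysosome, and fibroblasts are a major source of it in connective tissue and in the stroma of breast tumors.

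Total counts ran from 1885039 to 2184389 per library in pCAF and from 2223198 to 4990070 in NMF. Replicate 1 of pCAF and replicate 4 of NMF each differed most from their own group: across genes, Pearson correlations of log2 CPM, counts scaled by effective library size, were 0.83 and 0.834 between pCAF replicate 1 and the other pCAF libraries, against 0.974 between those, and 0.892 to 0.898 between NMF replicate 4 and the other NMF libraries, against 0.961 to 0.965 among those. No pair of libraries agreed within sampling noise, the smallest chi-square statistic per degree of freedom being 3.22, between pCAF replicates 2 and 3. All 8 markers of a fibroblast list were detected in both groups, with a summed level of 57115 to 62458 CPM in pCAF and 18309 to 33517 CPM in NMF. Col1a1 and Col1a2 made up most of these sums. In the edgeR test given below, 4 of the 8 were higher in pCAF, where 14.3% of all tested genes were. Pdpn, on which pCAF was sorted, was among them. Dcn lay the other way without passing, at 3867 to 6057 CPM in pCAF and 6397 to 12045 CPM in NMF. Markers of other cells were mostly lower in pCAF: 8 blood endothelial markers summed to 36.0 to 59.9 CPM in pCAF and 1236 to 2062 CPM in NMF, and 8 adipocyte markers to 7.76 to 70.9 CPM in pCAF and 1804 to 15576 CPM in NMF. Fabp4 made up most of the adipocyte sum in NMF, at 1577 to 15228 CPM. Fewer cells of a type and less RNA per cell cannot be told apart in such bulk samples, and the part of this difference in makeup in the results below was not tested.

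Promoter sequence is shown for 3 of the members whose transcripts differed between the groups, Cd44, Vcan and Hyal1, so that the letters upstream of genes that moved in opposite directions can be compared. RefSeq promoters of build GRCm38.p6 (mm10) were found for 6 of the 8 members, and the 250 bases before the start are printed 5′ to 3′ on the gene's strand, in lower case, with capitals for any match to 4 motifs searched on both strands: the RUNX core TGTGGT, AP-1 TGANTCA, the TEAD core GGAATG and the TATA box TATAAA. Cd44 is read from chr2:102901666-102901915 on the minus strand, Vcan from chr13:89742513-89742762 on the minus strand and Hyal1 from chr9:107576700-107576949 on the plus strand.
Cd44: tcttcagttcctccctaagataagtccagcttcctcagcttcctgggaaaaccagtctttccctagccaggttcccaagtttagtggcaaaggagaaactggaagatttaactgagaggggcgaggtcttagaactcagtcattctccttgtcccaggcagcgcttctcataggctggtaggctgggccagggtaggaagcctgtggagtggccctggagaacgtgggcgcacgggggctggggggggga
Vcan: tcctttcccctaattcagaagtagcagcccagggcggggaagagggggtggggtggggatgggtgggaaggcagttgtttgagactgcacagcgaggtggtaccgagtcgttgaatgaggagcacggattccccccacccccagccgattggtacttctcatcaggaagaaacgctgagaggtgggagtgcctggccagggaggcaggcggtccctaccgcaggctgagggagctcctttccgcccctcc
Hyal1: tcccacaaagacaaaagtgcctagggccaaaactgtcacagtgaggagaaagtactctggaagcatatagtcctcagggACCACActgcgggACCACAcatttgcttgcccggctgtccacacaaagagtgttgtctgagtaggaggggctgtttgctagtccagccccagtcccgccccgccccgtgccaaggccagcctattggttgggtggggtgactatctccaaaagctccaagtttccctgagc
The RUNX core, the short motif bound by the RUNX factors named in the series title, occurred in the Hyal1 window in its reverse complement ACCACA, 171 and 158 bases before the start. It occurred in none of the other windows found for members, while 14.0% of all 32851 promoters hold it. No promoter was found for Has2 and Has3, so neither was searched. None of the 4 motifs matched in the windows of Cd44, Vcan and Has1. The Tnfaip6 window held AP-1 as TGAGTCA 142 bases before the start, a motif found in 6.75% of all promoters, and the TEAD core 8 bases before it. The Hyal2 window held the TEAD core 229 bases before the start, a motif in 12.6% of all promoters. The matches are letters only and do not overlap one another. The windows precede the RefSeq start, whereas the gene positions given below are from GENCODE, whose starts differ: the Hyal2 window lies wholly inside the GENCODE gene, and those of Has1, Hyal1 and Tnfaip6 run past its start.

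Of the 8 members, 7 passed the filter on low counts and were tested. Has2, Cd44 and Vcan were higher in pCAF, Hyal1 was lower, and Has1, Hyal2 and Tnfaip6 did not pass the quasi-likelihood test of edgeR at a Benjamini-Hochberg adjusted p of 0.05. Has3, with no count in pCAF, was too low to test. Thus 4 of 7 tested members were called, where 28.4% of all 10535 tested genes were. By direction, 3 were higher and 1 lower, where 14.3% of all tested genes were higher and 14.2% lower. That even split of 1503 higher and 1491 lower genes depended on the scaling, being 1121 higher and 1902 lower with library totals. The median log2 fold change, pCAF over NMF, was 0.85 over the 7 members and -0.02 over all tested genes. That member median is the estimate of Tnfaip6, which did not pass and which fell to -0.11 without pCAF replicate 1 and NMF replicate 4. The 7 estimates ran from -2.75 for Hyal1 to 4.31 for Cd44. The groups did not overlap in CPM for 4 of the 7, where 40.4% of all tested genes did not overlap.

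**Figure D1:**
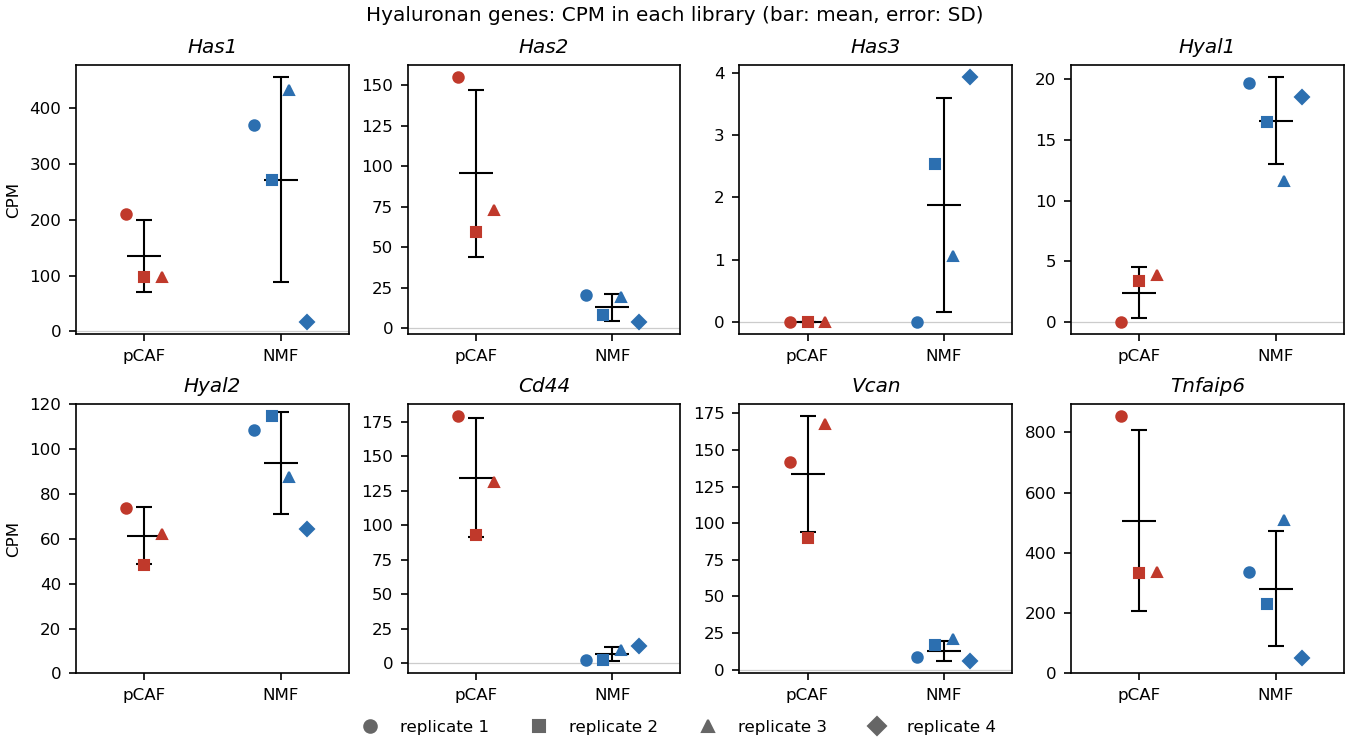
Level of each of the 8 genes in CPM (vertical axes, linear, each panel with its own scale) in the 3 pCAF libraries (red, left) and the 4 NMF libraries (blue, right); point shapes give the replicate, horizontal bars the mean and error bars the SD. All pCAF points lie above all NMF points for Has2, Cd44 and Vcan and below them for Hyal1, and NMF replicate 4 (diamond) is the lowest NMF point for Has1 at 16.4 CPM and for Tnfaip6 at 50.4 CPM.

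Among the synthases, Has2 rose and Has1 did not pass. Has2 (mm10 chr15:56665627-56694539, minus strand), which encodes the synthase required for heart development in the mouse embryo, stood at 155, 59.1 and 72.6 CPM in pCAF replicates 1 to 3, against 20.5, 8.02, 19.0 and 3.55 CPM in NMF replicates 1 to 4. No NMF library reached the lowest pCAF library, and pCAF replicate 1 was the highest. The means were 95.5 ± 51.7 CPM in pCAF (SD, n = 3) and 12.8 ± 8.28 CPM in NMF (SD, n = 4). The log2 fold change fitted by edgeR was 2.92 (SE 0.58), a 7.58-fold higher level in pCAF (adjusted p = 0.00426). Without both pCAF replicate 1 and NMF replicate 4 the fold was 4.08 (adjusted p = 2.62e-05). Those libraries were picked from these data for differing most from their own groups. Leaving them out narrows the spread within groups, so p-values of that fit can be too small. It called 2802 genes higher and 2913 lower in pCAF among 10838 tested.

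Has1 (mm10 chr17:17843323-17855205, minus strand), which encodes another synthase of the same family, was at 210.2, 96.9 and 98.1 CPM in pCAF, against 369, 271, 432 and 16.4 CPM in NMF. NMF replicates 1 to 3 all lay above pCAF, and NMF replicate 4 lay below every pCAF library, so that the groups overlapped. The means were 135 ± 65.1 CPM in pCAF (SD, n = 3) and 272 ± 183 CPM in NMF (SD, n = 4), and the log2 fold change of -1.01 (SE 0.78) did not pass (adjusted p = 0.375). Has1 passed as lower in pCAF without NMF replicate 4 (log2 fold change -1.37, adjusted p = 0.0288) and without that library and pCAF replicate 1 together (log2 fold change -1.88, adjusted p = 1.29e-06). In the latter fit the SE fell to 0.21, and the limit given for Has2 applies to its p-value. With limma-voom the log2 fold change of Has1 was -0.37 (adjusted p = 0.810).

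NMF replicate 4 held 88 Has1 counts, the largest NMF total notwithstanding, and its Has1 level was 21.7 times below the mean of NMF replicates 1 to 3. On the log2 CPM scale the deviation of this library from the other NMF libraries was -4.35 for Has1, and 0.0854% of tested genes deviated further downward. Tnfaip6 deviated by -2.74, Has2 by -1.84 and Vcan by -1.22 in the same library, whereas Cd44 deviated upward by 1.54. The marker lists moved in this library too: adipocyte markers summed to 1804 CPM in it, against 7618 to 15576 CPM in NMF replicates 1 to 3, myeloid markers to 31.7 CPM, against 141 to 176 CPM, and fibroblast markers to 33517 CPM, against 18309 to 23425 CPM. Fabp4 made up most of the adipocyte sums, at 1577 CPM in NMF replicate 4 and 7382 to 15228 CPM in NMF replicates 1 to 3. Other adipocyte markers were mixed in NMF replicate 4: Pparg was lowest there at 68.9 CPM, Plin4 highest at 28.6 CPM, and Adipoq within the range of the others at 28.9 CPM. The part of these marker differences in the low Has1 level was not tested.

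The balance of both synthase transcripts can be read within a library, where scaling between libraries plays no part. There were 0.736, 0.610 and 0.740 Has2 counts per Has1 count in pCAF replicates 1 to 3, against 0.0555, 0.0296, 0.0440 and 0.216 in NMF replicates 1 to 4. All 3 pCAF ratios lay above all 4 NMF ratios, and the closest NMF value was that of replicate 4. On the log2 scale the ratio averaged -0.53 ± 0.16 in pCAF (SD, n = 3) and -3.99 ± 1.24 in NMF (SD, n = 4). The difference, pCAF minus NMF, was 3.46, or 11.02-fold. The two-sided exact permutation p was 0.0571, the smallest that the 35 assignments of 3 and 4 libraries can give. This ratio was chosen after its values were seen. Leaving out 1 library at a time gave differences of 3.10 to 4.05.

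**Figure D2:**
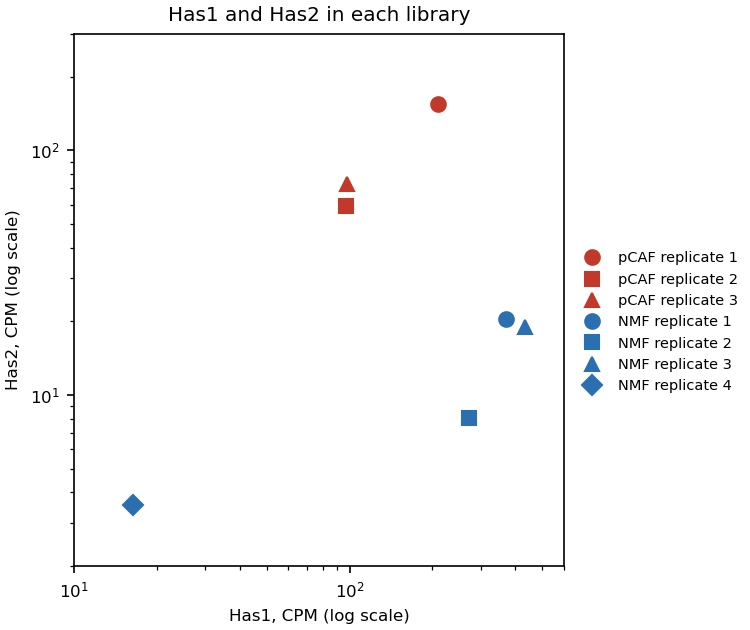
Has1 (horizontal axis) and Has2 (vertical axis) in CPM, both on log scales, with 1 point for each library, pCAF in red and NMF in blue, and shapes for replicates. The pCAF points lie highest on the Has2 axis, at 59.1 CPM or more, while the Has1 values of pCAF lie between NMF replicate 4 at 16.4 CPM and the other NMF libraries at 271 CPM or more.

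Has3 (mm10 chr8:106870242-106884566, plus strand), the remaining synthase gene, had no count in any pCAF library and 0, 6, 3 and 21 counts in NMF replicates 1 to 4, or 0, 2.53, 1.06 and 3.92 CPM. Most of its few counts thus came from NMF replicate 4, the deepest library. With pCAF set to 3 counts over its libraries, 0.557 CPM, as a floor, the level was at least 4.09-fold lower in pCAF, a bound of 2.07 without NMF replicate 4 and of 2.72 without pCAF replicate 1 or 3. It came to 2.74 with pCAF replicate 2 left out and to 1.38 with both pCAF replicate 1 and NMF replicate 4 left out, and it covers counting error only. The 3′ end of Has3 overlaps Chtf8 on the other strand, and strandedness is not given in the sources used here, so its share of reads is uncertain.

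The genes that bind hyaluronan included the largest rises among the members. Cd44 (mm10 chr2:102811141-102901665, minus strand), whose product is the receptor that links the polymer to the cytoskeleton, was at 179, 92.9 and 131 CPM in pCAF, against 1.93, 2.53, 9.15 and 12.1 CPM in NMF. The lowest pCAF library lay well above the highest NMF library, NMF replicate 4. The means were 134 ± 43.2 CPM in pCAF (SD, n = 3) and 6.44 ± 5.01 CPM in NMF (SD, n = 4). Cd44 was 19.8-fold higher in pCAF (log2 fold change 4.31, SE 0.56, adjusted p = 4.67e-04). The splice variants of Cd44 are not separated by counts per gene. Leaving out pCAF replicate 3, whose selection field read PDPN-, kept the calls of Has2, Cd44, Vcan and Hyal1, as the plot of left-out libraries shows.

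Cd44 is also abundant on leukocytes and on epithelial tumor cells. In pCAF, 2 of 6 tested myeloid markers and 3 of 7 tested epithelial markers were lower, where 14.2% of all tested genes were. Ptprc, which encodes CD45, and Adgre1 had no count in pCAF, and the 8 myeloid markers summed to 48.8 to 83.4 CPM in pCAF and 31.7 to 176 CPM in NMF. The 7 lymphocyte markers in the table summed to 1.11 to 8.87 CPM in pCAF and 0.187 to 22.8 CPM in NMF, with 6 of them at 0 in pCAF. The 8 epithelial markers summed to 131 to 273 CPM in pCAF and 196 to 556 CPM in NMF, and Epcam had 0, 5 and 6 counts in pCAF, against 64, 48, 24 and 41 in NMF. Other markers of both lists did not follow: Csf1r was at 10.7 to 27.2 CPM in pCAF and 3.36 to 14.1 CPM in NMF (adjusted p = 0.154), and Cd14, Fcgr3, Lyz2, Krt7, Krt8, Krt14 and Krt18 did not pass either. The part of such cells in the Cd44 result was not tested.

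Vcan (mm10 chr13:89655312-89742509, minus strand) was at 142, 90.1 and 168 CPM in pCAF, against 8.88, 16.5, 20.8 and 5.79 CPM in NMF. Again no pCAF library overlapped an NMF library, here with pCAF replicate 3 the highest. The means were 133 ± 39.6 CPM in pCAF (SD, n = 3) and 13.0 ± 6.86 CPM in NMF (SD, n = 4), and the 10.4-fold higher level in pCAF passed (log2 fold change 3.38, SE 0.44, adjusted p = 4.79e-04).

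Tnfaip6 (mm10 chr2:52038009-52056686, plus strand) was at 853, 332 and 335 CPM in pCAF, against 336, 230.5, 509 and 50.4 CPM in NMF. pCAF replicates 2 and 3 lay within the range of the NMF libraries, and pCAF replicate 1 lay above all others. The means were 507 ± 300.02 CPM in pCAF (SD, n = 3) and 282 ± 192 CPM in NMF (SD, n = 4), and the log2 fold change of 0.85 (SE 0.62) did not pass (adjusted p = 0.348). The estimate was 0.24 with pCAF replicate 1 left out and 0.53 with NMF replicate 4 left out, and it turned to -0.11 (adjusted p = 0.737) when both were.

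Of the hyaluronidases, Hyal1 fell and Hyal2 did not pass. Hyal1 (mm10 chr9:107576927-107581710, plus strand) was at 0, 3.38 and 3.88 CPM in pCAF, against 19.7, 16.5, 11.6 and 18.5 CPM in NMF, with 13 counts over the pCAF libraries and 222 over the NMF libraries. Every pCAF library lay below every NMF library, and pCAF replicate 1 had no count. The means were 2.42 ± 2.11 CPM in pCAF (SD, n = 3) and 16.6 ± 3.56 CPM in NMF (SD, n = 4). The fitted level was 6.75-fold lower in pCAF (log2 fold change -2.75, SE 0.72, adjusted p = 0.0175), a call lost without NMF replicate 1 (adjusted p = 0.0532). It was 10.3-fold lower with limma-voom and 4.35-fold lower without pCAF replicate 1 and NMF replicate 4 together. The last 1000 bp of Hyal1 transcripts overlap exons of Naa80 by up to 957 bp and of Hyal3 by up to 118 bp on the same strand, so its share of reads is uncertain. Naa80, listed under its older symbol Nat6, was at 61.0, 12.96 and 13.3 CPM in pCAF and 39.4 to 51.9 CPM in NMF and did not pass (adjusted p = 0.443). Hyal3, a further hyaluronidase gene, had 1 count over the pCAF libraries and 22 over the NMF libraries and was not tested.

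Hyal2 (mm10 chr9:107567945-107572779, plus strand), the neighbour of Hyal1 on the same chromosome, was at 73.8, 48.4 and 62.1 CPM in pCAF, against 109, 115, 87.7 and 64.2 CPM in NMF. Only pCAF replicate 1 and NMF replicate 4 crossed, all other pCAF libraries lying below all NMF libraries. The means were 61.4 ± 12.7 CPM in pCAF (SD, n = 3) and 93.8 ± 22.9 CPM in NMF (SD, n = 4), with a log2 fold change of -0.61 (SE 0.29, adjusted p = 0.146). Hyal2 passed as lower in pCAF without pCAF replicate 1 and NMF replicate 4 together (log2 fold change -0.91, adjusted p = 9.93e-04), and with library totals as the scaling (log2 fold change -0.86, adjusted p = 0.0460), which moved the median of all genes to -0.26. The limit given for Has2 applies to the p-value of the fit without those libraries.

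**Figure D3:**
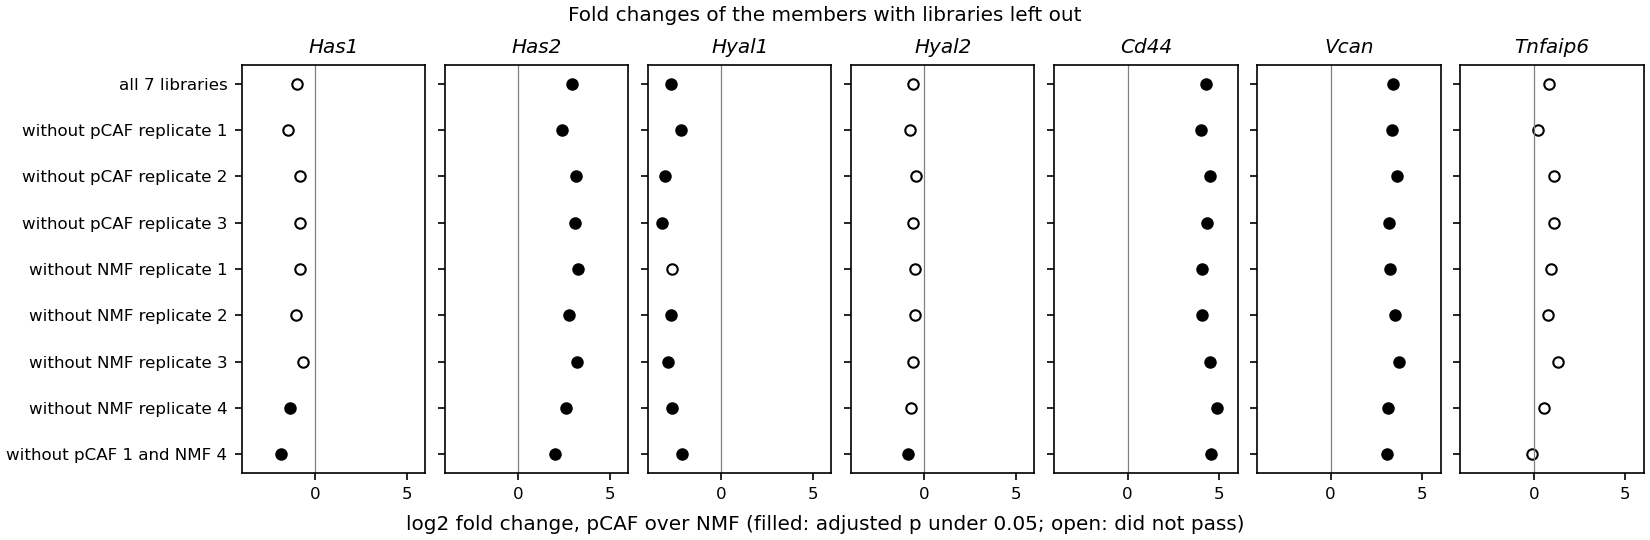
Log2 fold change, pCAF over NMF (horizontal axes), of the 7 tested members in the fit of all 7 libraries, with 1 library left out at a time, and without pCAF replicate 1 and NMF replicate 4 together (rows); filled points have an adjusted p under 0.05 and open points do not. Has2, Cd44 and Vcan stay filled throughout, Hyal1 opens without NMF replicate 1, Has1 fills without NMF replicate 4, and the Tnfaip6 estimate reaches -0.11 without both libraries.

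Other genes had profiles across the libraries much like those of the called members. By Pearson correlation of log2 CPM over the 7 libraries, among the 8503 tested genes that averaged 10 CPM or more, the profiles most like that of Has2 were Rcan1 (r = 0.995) and Spata24 (0.992). For Cd44 they were Zwint (0.996) and Ssr3 (0.994), and for Vcan Sacm1l (0.992) and Rras2 (0.988). For Hyal1 they were Klf9 (0.997) and Cdh13 (0.993). These correlations mix the difference between the groups with that among libraries and share every library, and they are given as a description. Fold changes differed from those of the members they resemble: Rcan1 was 2.80-fold, Zwint 2.21-fold and Sacm1l 4.61-fold higher in pCAF, and Cdh13 was 14.2-fold lower (adjusted p = 0.00582, 0.00706, 0.00144 and 0.00356).

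A further 60 genes that supply sugar precursors, degrade the polymer or bind it were in the table, and 38 were tested. Of these, 9 were higher and 3 lower in pCAF and 26 did not pass, where 28.4% of all tested genes passed. The counts by role below rest on few genes each and stand beside that same share, by direction 14.3% higher and 14.2% lower. Their median log2 fold change was 0.34, against -0.02 over all tested genes. The list was drawn up with earlier results of these data known.

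Genes of precursor supply changed in 5 of 11 tested cases, 4 up and 1 down, where 28.4% of all tested genes changed. Gfpt1 and Gfpt2 both encode the enzyme that commits fructose 6-phosphate to UDP-N-acetylglucosamine, and they moved in opposite directions. Gfpt1 was at 91.5 ± 21.7 CPM in pCAF and 26.9 ± 5.10 CPM in NMF, 3.39-fold higher in pCAF (log2 fold change 1.76, SE 0.29, adjusted p = 0.00143). Gfpt2 was at 182 ± 25.8 CPM in pCAF and 412.5 ± 94.2 CPM in NMF, 2.27-fold lower in pCAF (log2 fold change -1.18, SE 0.27, adjusted p = 0.00903). Neither pair of groups overlapped. Ugp2, which makes UDP-glucose, rose 2.97-fold (adjusted p = 0.00454). Ugdh, which oxidises UDP-glucose to UDP-glucuronic acid, was at 263 ± 53.5 CPM in pCAF and 238 ± 86.3 CPM in NMF (adjusted p = 0.784), and Uap1, which makes UDP-N-acetylglucosamine, at 153 ± 15.4 CPM in pCAF and 201 ± 27.5 CPM in NMF (adjusted p = 0.250). Hk2 (5.60-fold higher, adjusted p = 0.0105) and Gpi1 (1.61-fold higher, adjusted p = 0.0446), enzymes that glycolysis also uses, passed as well. The Gpi1 call was lost without pCAF replicate 2 or 3 and without any 1 NMF library (adjusted p from 0.0524 to 0.126), and its 3′ end has a near-identical copy, Gm1840, so its share of reads is uncertain.

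Cemip and Tmem2, listed for hyaluronan turnover outside the cell beside the hyaluronidase family above, were both higher in pCAF. Cemip, whose product binds hyaluronan and is needed for its depolymerisation by fibroblasts, had 16, 113 and 57 counts in pCAF, against 0, 0, 1 and 0 in NMF. Taken as summed counts over summed library sizes, the pCAF level was 454.5 times the NMF level, with a 95% counting interval of 80.6 to 18047 (edgeR, adjusted p = 3.09e-04). The ratio was 266 (46.3 to 10655) when pCAF replicate 2 was left out and 269 (47.8 to 10699.9) when NMF replicate 4 was. Leaving out NMF replicate 3 left no NMF count, and the pCAF level was then at least 119-fold higher, with NMF set to 3 counts over its libraries. Tmem2, a cell surface hyaluronidase of the mouse, was at 17.2, 37.7 and 55.4 CPM in pCAF, against 14.7, 14.4, 11.3 and 3.36 CPM in NMF. It was 3.42-fold higher in pCAF (adjusted p = 0.0339), a call that did not survive the loss of pCAF replicate 2 or 3 or of NMF replicate 1, 2 or 3 (adjusted p from 0.0596 to 0.141). The lysosomal exoglycosidases that finish the breakdown did not pass in edgeR or limma-voom in 3 of 3 tested cases, 1 of them having an unadjusted p under 0.05, and DESeq2's test called 1 lower. That gene, Hexa, a subunit of beta-hexosaminidase, was at 192 ± 9.76 CPM in pCAF and 294 ± 25.2 CPM in NMF (adjusted p = 0.0657) and passed as lower without pCAF replicate 1 (adjusted p = 0.0298).

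Among further receptors, 1 of 6 tested was higher and 2 were lower. Hmmr, which encodes RHAMM, a hyaluronan-binding protein that also acts at the mitotic spindle, had 23, 58 and 58 counts in pCAF, against 0, 1, 11 and 12 in NMF, and was 14.7-fold higher in pCAF (adjusted p = 0.00517). With 1 library left out at a time, the Hmmr fold ran from 11.3 (without NMF replicate 1) to 23.1 (without NMF replicate 3). Stab1, a scavenger receptor of sinusoidal endothelium and macrophages, was at 6.31 ± 1.56 CPM in pCAF and 36.4 ± 11.2 CPM in NMF, 5.72-fold lower in pCAF (adjusted p = 0.00154). All 8 blood endothelial markers were lower in pCAF as well, and their part in the Stab1 result was not tested. The 3′ end of Stab1 overlaps Nt5dc2 on the other strand, and strandedness is not given, so the share of reads of Stab1 is uncertain. Nt5dc2 was 4.11-fold higher in pCAF (adjusted p = 0.00346), the direction opposite to that of Stab1. Tlr2, an innate immune receptor, was 2.42-fold lower (adjusted p = 0.0420), and that call was lost without any 1 library other than pCAF replicate 1 (adjusted p from 0.0590 to 0.128). Lyve1, the hyaluronan receptor of lymphatic endothelium, had 0, 21 and 26 counts in pCAF, against 9, 12, 9 and 0 in NMF, and did not pass (adjusted p = 0.335). The 6 lymphatic endothelial markers, Lyve1 among them, summed to 23.3 to 46.8 CPM in pCAF and 32.4 to 78.8 CPM in NMF. Of the 3 that were tested, Mmrn1 was 12.1-fold higher (adjusted p = 0.00842) and Flt4 3.36-fold lower in pCAF (adjusted p = 0.0137). Prox1 had 2 counts over the pCAF libraries and 1 over the NMF libraries, and Ccl21a had none in any library.

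Of 7 genes that link CD44 to the cytoskeleton or cleave it, 1 passed. Ezr, encoding ezrin, which ties the CD44 tail to actin, was at 121 ± 33.5 CPM in pCAF and 58.5 ± 13.7 CPM in NMF, 2.07-fold higher in pCAF (adjusted p = 0.0198). Ezr no longer passed without pCAF replicate 3 (adjusted p = 0.0968), NMF replicate 2 (0.0585) or NMF replicate 3 (0.0623). Mmp14, a membrane protease that sheds CD44, was at 1178 ± 227 CPM in pCAF and 707 ± 141 CPM in NMF (adjusted p = 0.0648), and passed as higher without pCAF replicate 1 (0.0146) or NMF replicate 4 (0.0266). Its 3′ end shares sequence with 3 other genes, so its share of reads is uncertain.

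Versican-cleaving proteases of the ADAMTS family included 1 of 5 that passed. Adamts4 was at 156, 130 and 137 CPM in pCAF, against 5.02, 1.69, 8.80 and 3.55 CPM in NMF, 29.4-fold higher in pCAF (log2 fold change 4.88, SE 0.44, adjusted p = 6.09e-05). No library of either group reached the other group. Adamts1 was at 394 ± 294 CPM in pCAF and 383 ± 132 CPM in NMF (adjusted p = 0.959), with pCAF replicate 1 at 733 CPM and the other pCAF libraries at 235 and 215 CPM. Without pCAF replicate 1 its log2 fold change was -0.77 (adjusted p = 0.108), and without NMF replicate 4 as well it passed as lower in pCAF (-0.996, adjusted p = 1.69e-04). The limit given for Has2 applies to the latter p-value.

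Proteins that bind or cross-link hyaluronan in the matrix were mostly too low to test, with 4 of 17 tested. No binder passed in edgeR, 1 having an unadjusted p under 0.05, and limma-voom called none either, while DESeq2's test called 1, Itih5, lower in pCAF. Ptx3, a pentraxin that works with TSG-6 and inter-alpha-inhibitor in the hyaluronan-rich matrix around the mouse oocyte, was at 211 to 309 CPM in pCAF and 28.2 to 835 CPM in NMF (adjusted p = 0.627). Its log2 fold change was -0.55, and 0.19 without NMF replicate 3. NMF replicate 4 was the lowest library for Ptx3, as it was for Has1 and Tnfaip6. Itih5, a member of the heavy chain family of inter-alpha-inhibitor, was at 110.5 ± 3.87 CPM in pCAF and 222 ± 116 CPM in NMF (adjusted p = 0.0667). C1qbp was at 189 ± 122 CPM in pCAF and 97.7 ± 34.3 CPM in NMF (adjusted p = 0.198), passing as higher without pCAF replicate 1 (0.00651). The cartilage binders Acan and Hapln1 had no count in any library.

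**Figure D4:**
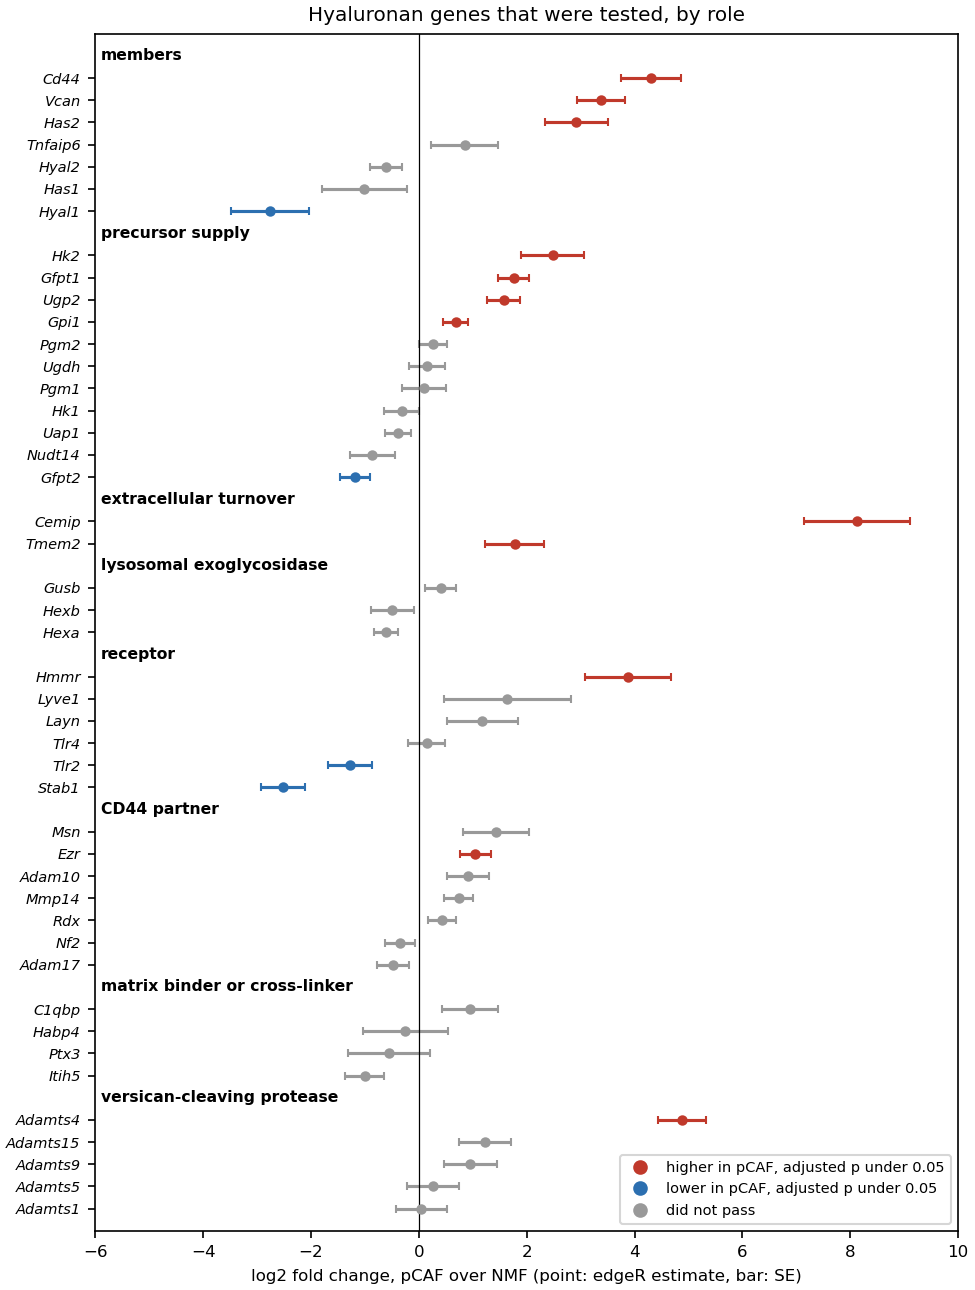
Log2 fold change, pCAF over NMF (horizontal axis, point for the edgeR estimate and bar for its SE), of the 7 tested members (top) and of the 38 tested pathway genes by role; red marks genes called higher and blue genes called lower in pCAF, and grey points did not pass. Among the members Cd44 lies at 4.31 and Hyal1 at -2.75. The point for Cemip rests on 1 NMF count and is therefore imprecise.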

How the data were processed

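The deposited table held raw counts per gene symbol, which the authors had not scaled. The submitters' processing notes name STAR 2.4.2a, HTSeq, bcl2fastq and the build mm10, without their roles. For strandedness, annotation and molecular identifiers: not given in the sources used here. Samples were grouped by title.

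Counts were tested in edgeR 4.0.16 under R 4.3.3: filterByExpr left 10535 genes, libraries were scaled with TMM, and a robust quasi-likelihood test compared pCAF with NMF, two-sided, adjusted by Benjamini-Hochberg over those genes, with a threshold of 0.05. CPM used the effective library sizes, log2 CPM a prior count of 2, and SE is the fold change divided by the root of F. Bounds use 3 counts over a group, and counting intervals are exact at 95%. Bounds and intervals cover counting error only.

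The fit was tested on simulated counts for these 10535 genes: it recovered 1.49% of 67 planted 2-fold, 58.2% of 67 planted 4-fold and 83.3% of 66 planted 8-fold changes. Far fewer changes were planted than the 2994 genes called in the real data, which makes the adjusted threshold stricter in the simulation. These recoveries therefore do not give the power of the fit to the real data. Replicate numbers are not said to pair animals and were not used to pair the groups. Positions and overlaps came from GENCODE M21, and near-identical 3′ ends (last 300.0 bp, matches of at least 80 bp at 95% identity) from blastn 2.17.0. Promoters came from RefSeq, GRCm38.p6.

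The members and gene lists were chosen with earlier results of these data known. Named were all members, every pathway gene that passed, the 8 most abundant that did not, and the 2 genes most like each called member. Hyal3, Lyve1, Acan, Hapln1 and the cell type markers were named outside this rule, after their values were seen, as were genes that overlap a named gene. The marker lists of pericytes, lymphatic endothelium, erythroid and Schwann cells summed to 352 to 552, 23.3 to 46.8, 1.13 to 4.43 and 0 to 3.38 CPM in pCAF and to 365 to 565, 32.4 to 78.8, 0.374 to 5.91 and 138 to 665 CPM in NMF. The similar pericyte sums hold opposite changes. Of 8 tested markers of that list, which includes smooth muscle genes, 2 were higher in pCAF (Des and Cnn1) and 2 lower (Rgs5 and Notch3). Of all tested genes, 14.3% were higher and 14.2% lower. Alternatives were DESeq2 1.42.0 and limma-voom (limma 3.58.1), other scalings and filters, a replicate block and left-out libraries.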

Additional observations from a re-analysis of the deposited data

Results flagged for a closer look

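In 2 named genes a single NMF library lay further from the other 3 than Dixon's 95% critical value for 4 samples allows. For Cemip this was NMF replicate 3 at 0.352 CPM, which is 1 count where the other NMF libraries had none. For Tlr2 it was NMF replicate 4 at 35.3 CPM, with the next library at 19.0 CPM, and without that library Tlr2 did not pass (adjusted p = 0.0868). None of the 8 members was so marked. Of the 60 member and pathway genes with any spread in NMF, 6 were, but 4 of these, Cemip included, hold 1 count in a single NMF library, where the ratio reaches its maximum by construction. Their number is therefore not set against the roughly 1 in 20 that chance marks.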

How the results depend on the processing

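Has2, Cd44 and Vcan kept their direction and passed under all 15 alternatives run, with largest adjusted p of 0.0203, 0.00300 and 0.00397. Without pCAF replicate 1 and NMF replicate 4, the calls numbered 2802 higher and 2913 lower in pCAF among 10838 tested genes. That is a larger share of all genes than the 28.4% of the main fit. Of 39 tested pathway genes, 18 were higher and 8 lower in that fit, and 3 members were lower (Has1 at -1.88, Hyal2 at -0.91 and Hyal1). Tnfaip6 (-0.11, adjusted p = 0.737) and Adamts1 (-0.996, called lower, adjusted p = 1.69e-04) turned negative. Both libraries were picked for differing most from their own groups, so the p-values of that fit can be too small. With library totals, 1121 genes were higher and 1902 lower, 6 pathway genes were higher (Gpi1, Tmem2 and Ezr lost) and 5 lower, 2 members were lower, Hyal2 (-0.86) among them, and Ugdh (-0.0756) and Adamts1 (-0.25) turned. DESeq2's test put 5 pathway genes lower. With limma-voom Ptx3 (0.18) and Adamts1 (-0.12) turned. The replicate block left 978 genes higher, put Cd44 at 32.1-fold and Hmmr at 23.6-fold higher, Has1 at -1.47 (adjusted p = 0.0268) and Hyal1 at -2.81 (adjusted p = 0.0820), and turned Ugdh (-0.0540) and Adamts1 (-0.42). Replicate numbers are not said to pair animals, so they were no block in the main fit. Same-numbered libraries correlated at -0.09, 0.08 and -0.01 after removal of group means, and so few values cannot settle whether they are paired. Leaving out 1 library at a time gave 1016 to 2021 genes higher and 979 to 2187 lower, 6 to 12 pathway genes higher and 2 to 4 lower, 0 to 2 members lower, log2 fold changes of -1.48 to -0.67 for Has1 and of -3.26 to -2.18 for Hyal1, and turned Ugdh (-0.0415 to 0.32, negative without NMF replicate 4), Ptx3 (-0.93 to 0.19, positive without NMF replicate 3) and Adamts1 (-0.77 to 0.34, negative without pCAF replicate 1, or NMF replicate 4 at -0.14). The cause of these changes was not tested. With 3 and 4 libraries, some changes near 2-fold did not pass, such as that of Itih5 (2.01-fold lower), while others did, such as that of Ezr (2.07-fold higher). Genes such as Has3 and Hyal3 are limited by depth.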
